A study of Mus musculus with 10 samples.

Results

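The immunity-related GTPases described here are 7 mouse genes: Irgm1, Irgm2, Igtp, Iigp1, Tgtp1, Tgtp2 and Ifi47. They were chosen by symbol, as the rows of the deposited count table whose Ensembl identifiers carry those symbols in GENCODE M21, and are 7 of 55385 mouse genes in the table. All 7 were well above the filter on low values and entered every test. RNA was sequenced in bulk from Tomato+ neutrophils, isolated from squamous cell carcinoma (SCC) grafts on CatchupIVM-red mice, in which a red Tomato reporter is tied to the neutrophil gene Ly6g. The grafts were Sox2low parental control cells or Sox2Hi cells, Sox2 being a stem cell transcription factor. Tumours were left naive or, once established, treated with anti-PDL1 together with a CD40 agonist. With control grafts there were 3 naive and 2 treated libraries, and with Sox2Hi grafts likewise 3 naive and 2 treated, and the question was whether Sox2 in the tumour lowers the response of neutrophils to interferons. All hosts carried the reporter. The library descriptions begin with C57 in every group and carry GFP for the control grafts, and the labels do not say what these words mark. The labels give neither the hosts' age nor whether the Sox2Hi cells are 1 clone, and do not say that libraries came from separate animals. The p-values therefore measure the spread between these libraries, which may be partly technical.

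Immunity-related GTPases (IRGs) are large GTPases of mouse cells that interferons switch on, interferon gamma above all, through factors such as IRF1. They protect cells against bacteria and parasites that live inside vacuoles. The effector members, Iigp1 (also called Irga6), Tgtp1 and Tgtp2 (both Irgb6) and Ifi47 (Irgd), can load onto the vacuole and help to break it open. The regulators Irgm1, Irgm2 and Igtp (Irgm3) sit on the cell's own membranes and hold the effectors inactive there. Loading onto vacuoles depends on the enzymes that conjugate LC3 and GABARAP proteins in autophagy.

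The classes differ in the loop that binds the nucleotide phosphate, called GMS in the regulators and GKS in the effectors. The 24 coding bases of that loop are shown because they carry the division between regulators and effectors. They were read from GENCODE M21 transcripts, 5′ to 3′ on the coding strand, with the class-defining codon in capitals, which encodes methionine in GMS members and lysine in GKS members.
Irgm1, Irgm2 and Igtp: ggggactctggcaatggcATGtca
Tgtp1 and Tgtp2: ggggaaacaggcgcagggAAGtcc
Ifi47: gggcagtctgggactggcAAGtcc
The 3 regulators have the same loop letters, as do the 2 Tgtp genes. In GRCm38 the loop lies within 1 exon in each gene: chr11:48866761-48866784 on the minus strand (Irgm1), chr11:58219695-58219718 on the plus strand (Irgm2), chr11:58206275-58206298 on the plus strand (Igtp), chr11:48987667-48987690 and chr11:49059534-49059557 on the minus strand (Tgtp1 and Tgtp2), and chr11:49095648-49095671 on the plus strand (Ifi47). The corresponding codon of Iigp1 was AAG.

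Beyond the loop, the coding sequences of Tgtp1 and Tgtp2 were 99.7% identical, differing at 4 of 1245 aligned positions. The 3 regulators were 63.9% to 68.3% identical to one another. The near-identity of the Tgtp pair bears on every value given for them. Of all 31-base words in Tgtp1 transcripts, 15.6% occur in no other gene, and 83.2% also occur in Tgtp2. For Tgtp2 these shares were 9.46% and 89.2%. The split of reads between the 2 genes therefore rests on few letters and is uncertain, and their sum is given beside them.

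A promoter stretch is shown for the 4 members in which the letters of both interferon motifs were found, because all 7 genes moved together in the results that follow. The 250 bases before the RefSeq start of each gene, from RefSeq's GRCm38.p6 table, were searched on both strands. RefSeq and GENCODE M21 starts differ for some members: the RefSeq start lies 15359 bases inside the GENCODE gene for Irgm2, 1926 for Tgtp1 and 263 for Irgm1, and 31, 12 and 0 bases from the nearest start of a GENCODE transcript of the same gene. The stretches of Irgm2 and Tgtp1 are therefore within the GENCODE gene, outside its exons, and that of Irgm1 is within an exon of another of its transcripts and is not printed. The motifs were TTCNNNGAA, the GAS element of interferon gamma responses, and the ISRE bound by IRF factors, searched as GAAA, 2 bases of any kind and GAAA again. The 2 motifs do not overlap in any stretch that holds both. Of the 7 members, 6 had an entry in that table, and Iigp1 had none. Capitals mark the matches, and each stretch reads towards the gene.
Irgm2, chr11:58214887-58214937, plus strand: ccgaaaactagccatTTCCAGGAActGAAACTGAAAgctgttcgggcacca
Igtp, chr11:58199496-58199546, plus strand: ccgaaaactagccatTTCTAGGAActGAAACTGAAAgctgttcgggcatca
Tgtp1, chr11:48992299-48992349, minus strand: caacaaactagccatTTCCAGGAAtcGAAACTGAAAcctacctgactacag
Tgtp2, chr11:49064258-49064308, minus strand: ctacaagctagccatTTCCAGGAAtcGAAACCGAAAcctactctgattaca
In Irgm2, Igtp, Tgtp1 and Tgtp2 a GAS match was followed, after 2 bases, by an ISRE match. Of 32851 promoters of the same length, 7.02% held the GAS letters, 2.98% the ISRE letters and 0.332% both. Irgm1 held 2 overlapping ISRE matches and no GAS match, and neither set of letters was in the 250 bases before Ifi47. A match is only a run of letters. No binding was measured here.

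All but 1 of the members lie on chromosome 11. In GRCm38 coordinates, Irgm1 (ENSMUSG00000046879, 48861968 to 48871683, minus strand), Tgtp1 (ENSMUSG00000078922, 48985327 to 48994172, minus strand), Tgtp2 (ENSMUSG00000078921, 49057194 to 49064206, minus strand) and Ifi47 (ENSMUSG00000078920, 49076587 to 49096974, plus strand) are neighbours. Igtp (ENSMUSG00000078853, 58199556 to 58207591, plus strand) and Irgm2 (ENSMUSG00000069874, 58199618 to 58222782, plus strand) overlap on the same strand further along. Iigp1 (ENSMUSG00000054072, 60376027 to 60392634, plus strand) is on chromosome 18. All are annotated as protein coding. Igtp and Irgm2 share 162 exonic bases, which are 8.01% of Igtp's and 4.39% of Irgm2's exonic length, so reads there cannot be told apart by position. Ifi47 shares 111 exonic bases with Olfr56 and 106 with Gm12188, and Tgtp1 shares 223 with Gm12185.

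Total counts per library ran from 13815734 to 22986193. Every library held transcripts of all neutrophil markers checked except Elane, a gene of immature neutrophils, which was at 0 in at least 1 library, and Ly6g itself was low, from 1.62 to 18.3 CPM (a gene's count as a share of its library, scaled to a fixed total). Some reads fell over olfactory and vomeronasal receptor genes, taken as silent in these cells. The background expected from them was between 1.35% and 7.46% of a library's counts, lowest in the control treated libraries. For the members it came to at most 8.71% of reads in Irgm2, the lowest of them, and at most 1.04% in each of the others. Levels are given as CPM scaled by TMM factors from the 11274 genes that averaged 5 CPM or more. These factors and those from all filtered genes were both lowest in the control treated libraries, where the background was lowest. Whether background drives either set of factors was not tested. Results of the scaling from all 29648 filtered genes, called the all-gene scaling, are given for the members and, as counts, for the related lists, of which it tests some further genes. That alternative changes the factors and also the genes tested and adjusted over, and their parts were not separated.

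All 7 GTPases rose with treatment, in both grafts. The rise ran from 3.02-fold (Irgm2) to 9.19-fold (Tgtp1) in control tumours and from 2.12-fold (Irgm2) to 7.15-fold (Tgtp1) in Sox2Hi tumours. Summed over the 7 genes, transcripts came to 2203, 3803 and 2929 CPM in the control naive libraries and to 21343 and 18544 CPM in the control treated libraries. The sums were 2051, 2626 and 1701 CPM in Sox2Hi naive and 10624 and 10914 CPM in Sox2Hi treated. For each of the 7 genes, all 4 treated libraries lay above all 6 naive libraries, a separation seen in 13.6% of the 11274 genes tested.

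**Figure D1:**
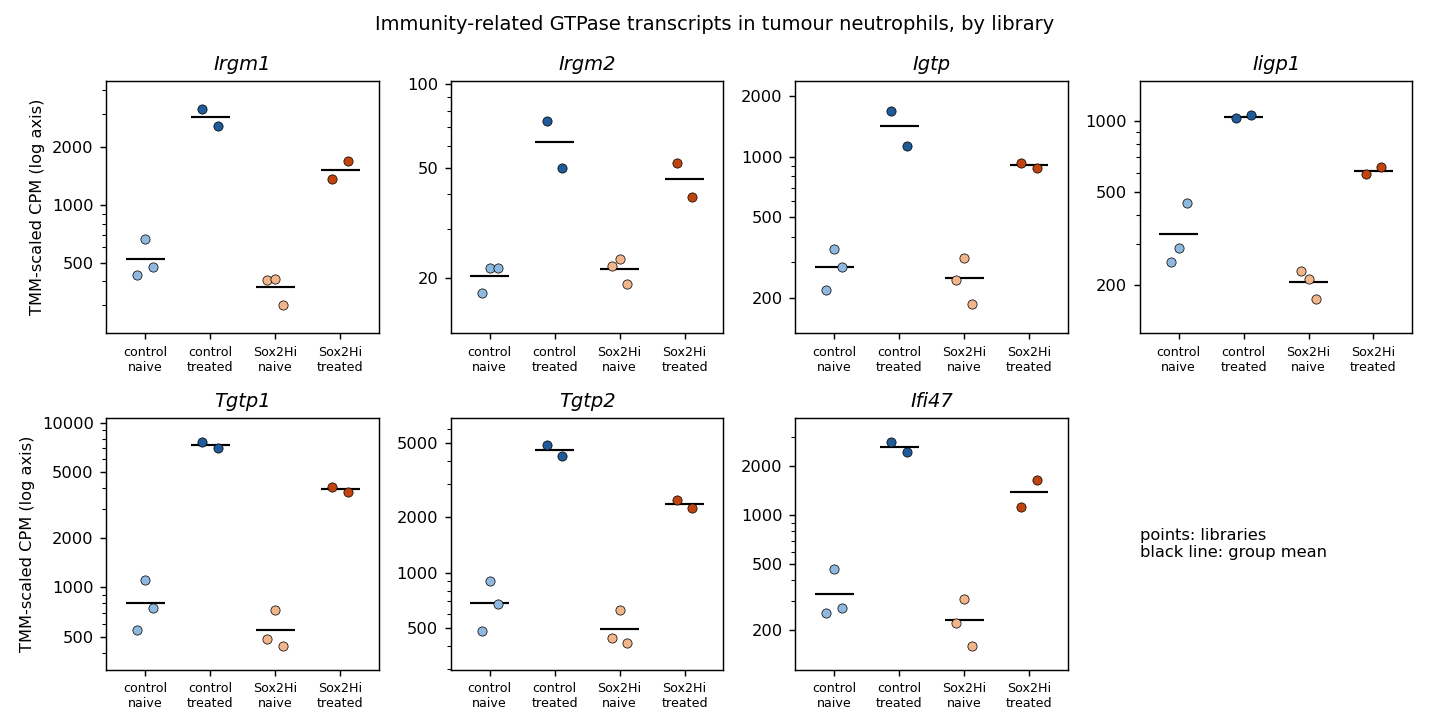
Level of each of the 7 immunity-related GTPases in the 10 libraries, as TMM-scaled CPM on a log axis (each panel has its own range). Points are libraries and black lines are group means. In every panel the 4 treated libraries lie above the 6 naive ones, and the control treated libraries lie above the Sox2Hi treated ones in every panel but that of Irgm2.

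Among the regulators, Irgm1, which also takes part in mitochondrial and autophagic control, was at 432, 665 and 474 CPM in the control naive libraries and at 3169 and 2578 CPM in the control treated ones. In Sox2Hi tumours it was at 407, 411 and 300.1 CPM when naive and at 1364 and 1697 CPM when treated. The lowest treated library was thus 2.05 times the highest naive library. Its log2 fold change with treatment was 2.46 (SE 0.23, edgeR adjusted p = 5.15e-05) in control tumours and 2.04 (SE 0.23, edgeR adjusted p = 0.00070) in Sox2Hi tumours.

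Igtp, the regulator found mainly at the endoplasmic reticulum and lipid droplets, was at 218, 351 and 285 CPM in control naive and at 1692 and 1132 CPM in control treated libraries. In Sox2Hi libraries it was at 246, 317 and 188 CPM when naive and at 929 and 883 CPM when treated. The treated groups were separate from both naive groups, and the 2 Sox2Hi treated libraries were close to one another. The log2 fold changes with treatment were 2.31 (SE 0.26, edgeR adjusted p = 0.00012) in control and 1.86 (SE 0.26, edgeR adjusted p = 0.0021) in Sox2Hi tumours.

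Irgm2, a regulator known for restraining non-canonical inflammasome responses, was the lowest member in every library. It was at 17.7, 21.8 and 21.7 CPM in control naive, and at 73.4 and 49.9 CPM in control treated libraries. It was at 22.2, 23.3 and 19.0 CPM in Sox2Hi naive and at 51.8 and 39.2 CPM in Sox2Hi treated libraries. The treated libraries of the 2 grafts overlapped. Its log2 fold change was 1.60 (SE 0.20, edgeR adjusted p = 0.00022) in control and 1.08 (SE 0.20, edgeR adjusted p = 0.0083) in Sox2Hi tumours. The Sox2Hi call was lost when no filter on low counts was used (edgeR adjusted p = 0.094).

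Among the effectors, the Tgtp genes had the highest levels per kilobase of exon. Tgtp1 was at 549.6, 1102 and 749 CPM in control naive and at 7655 and 7042 CPM in control treated libraries. It was at 482, 727 and 441 CPM in Sox2Hi naive and at 4089.7 and 3777 CPM in Sox2Hi treated libraries. Its lowest treated library was 3.43 times its highest naive one. The log2 fold changes were 3.20 (SE 0.30, edgeR adjusted p = 5.15e-05) in control and 2.84 (SE 0.30, edgeR adjusted p = 0.00052) in Sox2Hi tumours.

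Tgtp2, its near copy, was at 481, 905 and 678 CPM in control naive and at 4916 and 4254 CPM in control treated libraries. In Sox2Hi libraries it was at 445, 630.3 and 418 CPM when naive and at 2469 and 2249 CPM when treated. The order of the groups was that of Tgtp1. Its log2 fold changes were 2.74 (SE 0.27) in control and 2.24 (SE 0.26) in Sox2Hi tumours. With the 2 genes summed before the test, which removes the doubt over their split, the log2 fold changes were 3.00 (SE 0.29, edgeR adjusted p = 6.32e-05) and 2.59 (SE 0.29, edgeR adjusted p = 0.00070).

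Ifi47, a less studied effector, was at 254, 469 and 272 CPM in control naive and at 2809 and 2433 CPM in control treated libraries. It was at 219, 306 and 159.5 CPM in Sox2Hi naive and at 1125 and 1634 CPM in Sox2Hi treated libraries. All groups were separate except the 2 naive ones. Its log2 fold changes were 2.98 (SE 0.32, edgeR adjusted p = 0.00010) in control and 2.60 (SE 0.32, edgeR adjusted p = 0.0012) in Sox2Hi tumours.

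Iigp1, an effector that loads onto vacuoles, was at 250.3, 289 and 449 CPM in control naive and at 1028 and 1056 CPM in control treated libraries. It was at 229.8, 212 and 176 CPM in Sox2Hi naive and at 595 and 635 CPM in Sox2Hi treated libraries. Here all 4 groups were separate, and the gap between naive and treated was the narrowest of the 7 genes, with the lowest treated library at 1.32 times the highest naive one. Its log2 fold changes were 1.66 (SE 0.23, edgeR adjusted p = 0.00031) in control and 1.58 (SE 0.23, edgeR adjusted p = 0.0024) in Sox2Hi tumours.

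Thus 7 of 7 members were called higher with treatment in each graft, where a call is an edgeR adjusted p under 0.05. Of all genes tested, 28.7% were called higher with treatment in control tumours and 11.8% in Sox2Hi tumours. The members' median log2 fold change was 2.46 in control and 2.04 in Sox2Hi tumours, beside medians of -0.051 and 0.025 over all genes tested. Under the reported scaling abundant genes shifted as a group in control tumours. The 1473 genes of at least 100 CPM had a median of 0.65 there (0.0082 with library totals only) and 0.069 in Sox2Hi tumours (-0.22 with library totals only). The members stood 1.81 above the abundant genes in control and 1.97 above them in Sox2Hi tumours. Under the all-gene scaling all 7 were again called higher in both grafts, with member medians of 2.89 and 1.84, beside 18.7% of genes in control and 1.79% in Sox2Hi tumours. All 7 were also called with factors from genes of at least 100 CPM, beside 10.4% and 9.09%. The log2 fold changes were then smaller in control tumours, from 0.92 (Irgm2) to 2.52 (Tgtp1), with 0.99 for Iigp1 and a median of 1.78, and ran from 1.02 (Irgm2) to 2.77 (Tgtp1) in Sox2Hi tumours, with a median of 1.97. These factors move the median of all genes tested by -0.67 for treatment in control tumours, -0.068 for treatment in Sox2Hi, -0.091 between naive grafts, 0.51 between treated grafts and 0.60 for the interaction.

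**Figure D2:**
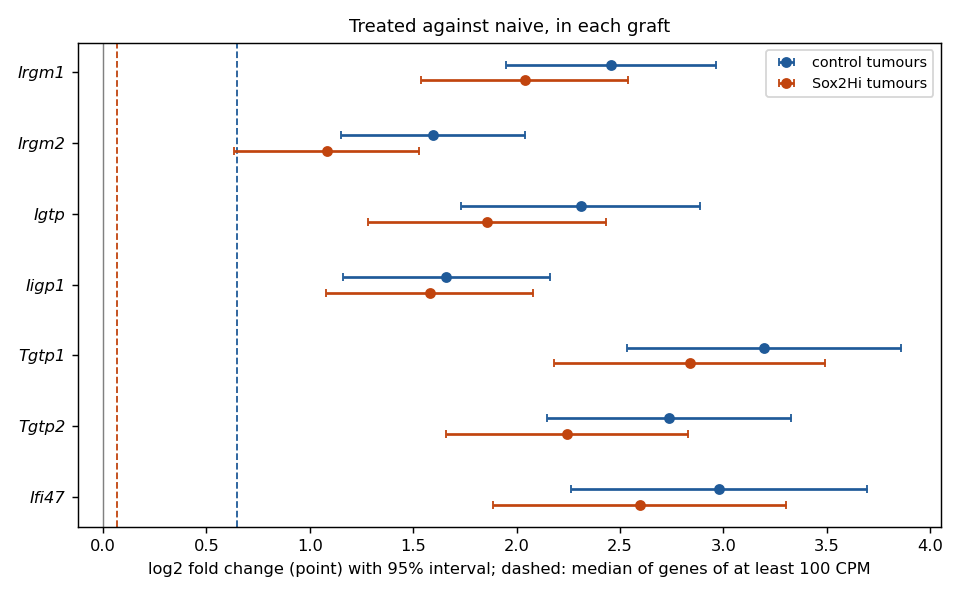
Log2 fold change of each member, treated against naive, in control tumours (blue) and Sox2Hi tumours (orange). Points are edgeR estimates with 95% intervals, and dashed lines mark the median of the 1473 genes of at least 100 CPM in the same colour. Every point lies above both dashed lines, from 1.08 (Irgm2, Sox2Hi) to 3.20 (Tgtp1, control).

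Summed markers of neutrophils and of other cells moved with treatment as well. The summed level of 20 neutrophil marker genes ran from 15923 to 25234 CPM in control naive and from 54636 to 55782 CPM in control treated libraries. With Sox2Hi grafts it ran from 15841 to 23538 CPM when naive and from 27090 to 28470 CPM when treated. The 16 macrophage and dendritic cell markers summed to between 7713 and 11398 CPM in control naive and between 20091 and 20939 CPM in control treated libraries. Of the 18 neutrophil markers tested, 18 were called higher with treatment in control and 9 in Sox2Hi tumours, and 15 and 9 with factors from genes of at least 100 CPM. In Sox2Hi the macrophage and dendritic cell markers summed to between 7979 and 11755 CPM when naive and between 10305 and 24845 CPM when treated, and most of that sum is antigen-presenting Cd74 (5001 to 17231 CPM over all libraries). Markers of these cells did not all move alike. Of the 13 tested, 4 were called higher and 1 lower with treatment in control tumours, and 1 and 1 in Sox2Hi. With factors from genes of at least 100 CPM 0 were higher and 3 lower in control, and 1 and 1 in Sox2Hi. In control tumours H2-Ab1 was at 1447 to 2026 CPM when naive and 3488 to 3492 CPM when treated. There H2-Aa was at 616 to 757 and 1404 to 1565 CPM, and Csf1r at 11.7 to 17.1 and 28.5 to 34.9 CPM. Cd209a was at 11.2 to 22.7 and 0.15 to 1.74 CPM, Flt3 at 1.98 to 4.17 and 1.34 to 1.44 CPM, and Apoe, with overlap, at 409 to 652 and 272 to 528 CPM. The 12 T and NK cell markers summed to between 41.7 and 147 CPM in naive libraries and between 146 and 476 CPM in treated ones. The 10 keratinocyte and tumour epithelial markers summed to between 2111 and 4782 CPM in naive and between 1254 and 2940 CPM in treated libraries, and the 10 fibroblast and endothelial markers to between 301 and 787 and between 112 and 341 CPM. The 5 B and plasma cell markers summed to between 24.6 and 167 CPM in every library but Sox2Hi naive replicate 2 (691 CPM), and the 5 erythroid markers to between 272 and 1493 CPM in naive and between 24.05 and 319 CPM in treated libraries. No marker but Elane was at 0 in any library. The part of these shifts in the members' results was not tested, and fewer cells of a type cannot be told apart from less RNA per cell in bulk libraries.

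Levels were compared between members only per kilobase of exon. In both naive groups the order of mean scaled CPM per kb was Tgtp1, Tgtp2, Igtp, Ifi47, Irgm1, Iigp1 and Irgm2. In control naive libraries the means were 249.6 ± 87.3 (SD, n = 3) for Tgtp1, 234 ± 72.1 for Tgtp2, 141 ± 32.8 for Igtp, 134 ± 48.2 for Ifi47, 90.1 ± 21.4 for Irgm1, 56.6 ± 18.1 for Iigp1 and 5.52 ± 0.63 for Irgm2. Only the step from Iigp1 to Irgm2 was free of overlap between libraries there. In control treated libraries Ifi47 had moved above Igtp, and the means were 2293 ± 135 (SD, n = 2) for Tgtp1, 1561 ± 159.5 for Tgtp2, 1059.9 ± 107 for Ifi47, 698 ± 196 for Igtp, 495 ± 72.0 for Irgm1, 179 ± 3.39 for Iigp1 and 16.7 ± 4.50 for Irgm2. No neighbours in that order overlapped. The Sox2Hi treated order was the same, with overlap only between Ifi47 (558 ± 146, SD, n = 2) and Igtp (448 ± 16.3).

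Tgtp1 was 1.06 to 1.22 times Tgtp2 in the 6 naive libraries and 1.56 to 1.68 times Tgtp2 in the 4 treated ones. The ratio of Igtp to Irgm2 was 9.86 to 16.1 in naive and 17.9 to 23.05 in treated libraries. These 2 ratios were chosen after their values had been seen and are given as a description, and for both pairs the deposited values divide reads between overlapping or near-identical transcripts.

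In naive tumours no member was called different between the grafts. Of all genes tested, 11.8% were called in that comparison in either direction and 8.59% were called lower in Sox2Hi. The estimates ran from -0.68 (Iigp1) to 0.077 (Irgm2), with a median of -0.49, beside 0.038 over all genes tested and 0.069 over those of at least 100 CPM. Under the all-gene scaling the members' median was -0.20, with 2 members above 0, beside -0.081 over all genes and 0.35 over those of at least 100 CPM. With 1 library left out of the reported fit the members' median ran from -0.75 to -0.23. The 95% interval was -1.14 to -0.22 for Iigp1 (SE 0.21, edgeR adjusted p = 0.057), -0.95 to -0.038 for Irgm1 (SE 0.21, edgeR adjusted p = 0.15) and -0.33 to 0.49 for Irgm2 (SE 0.18, edgeR adjusted p = 0.84). Only Irgm1 and Iigp1 had all 3 Sox2Hi naive libraries below all 3 control naive ones, a pattern found in 17.6% of genes tested. At an unadjusted p under 0.05, Irgm1 and Iigp1 would pass, DESeq2 called Iigp1 alone, and limma-voom called none.

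The naive libraries resembled one another by replicate number, which bears on this comparison. For 6 of the 7 members, replicate 2 was the highest of the 3 naive libraries in both grafts, and Iigp1 was the exception. In a fit of the naive libraries on their own, blocked by replicate number, 5 of 7 members were called lower in Sox2Hi, against 14.3% of the genes in that fit. They were Ifi47 (-0.55, edgeR adjusted p = 0.023), Tgtp1 (-0.54, edgeR adjusted p = 0.029), Iigp1 (-0.66, edgeR adjusted p = 0.045), Irgm1 (-0.50, edgeR adjusted p = 0.046) and Tgtp2 (-0.46, edgeR adjusted p = 0.048). Igtp (-0.21, edgeR adjusted p = 0.36) and Irgm2 (0.059, edgeR adjusted p = 0.80) were not. The sizes were close to those without the block. In the fit of all 10 libraries, the block by title number called no member between naive grafts (edgeR adjusted p from 0.061 for Iigp1 to 0.83 for Irgm2), nor did the block by description number. The pairing was read from the libraries, as no label gives a meaning to the numbers. Ddx3y, a gene of chromosome Y, moved with these numbers: it had 4 and 6 counts in control and Sox2Hi naive replicate 1, 3854 and 2814 in replicate 2 and 1436 and 1007 in replicate 3. Each treated group also held 1 library of either kind, with 8 and 6618 counts in control and 3980 and 7 in Sox2Hi. With Ddx3y as a covariate no member was called between naive grafts (Iigp1 at -0.67, edgeR adjusted p = 0.075), and its part in the pairing was not tested further.

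In treated tumours Irgm1 and Tgtp2 were called lower in Sox2Hi. Irgm1 was at 1364 and 1697 CPM in Sox2Hi against 3169 and 2578 CPM in control tumours (log2 fold change -0.91, SE 0.25, edgeR adjusted p = 0.031), and Tgtp2 at 2469 and 2249 CPM against 4916 and 4254 CPM (-0.96, SE 0.29, edgeR adjusted p = 0.041). The other 5 were not called: Iigp1 at -0.76 (SE 0.25, edgeR adjusted p = 0.053), Tgtp1 at -0.90 (SE 0.32, edgeR adjusted p = 0.069), Ifi47 at -0.93 (SE 0.35, edgeR adjusted p = 0.081), Igtp at -0.64 (SE 0.29, edgeR adjusted p = 0.13) and Irgm2 at -0.44 (SE 0.22, edgeR adjusted p = 0.18). Of all genes tested, 10.1% were called lower. For 6 of the 7, both Sox2Hi treated libraries lay below both control treated ones, a pattern in 34.1% of genes tested. Tgtp1 and Tgtp2 summed gave -0.92 (SE 0.32, edgeR adjusted p = 0.060).

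These 2 calls depended on the scaling, the tool, the replicate block and single libraries, and both were kept under the 2 other filters on low counts. Under the reported scaling abundant genes as a group were also lower in Sox2Hi treated tumours, with a median of -0.48 over the 1473 genes of at least 100 CPM (-0.074 with library totals only and 0.030 with factors from those genes). The members' median of -0.90 lay 0.42 below the -0.48. The all-gene scaling, with its larger set of genes, gave another count: 7 of 7 members were called (median -1.24), beside 9.62% of genes, while the abundant genes' median was -0.82 and the members again lay 0.42 below it. With factors taken from the abundant genes alone no member was called, beside 1.09% of genes called lower, Irgm2 stood at 0.082 and the other 6 kept a negative sign. DESeq2 and the replicate block by title number each called 5 members, beside 16.2% and 14.8% of genes called lower, and a filter at 1 CPM called 6, beside 10.5%. No member was called by limma-voom (beside 7.27% of genes), with the replicate block by description number (6.76%), with the 2 treated groups fitted alone (1.64%) or with background subtracted (3.38%). Leaving out either control treated library, either Sox2Hi treated library or Sox2Hi naive replicate 1 or 2 also left no member called, leaving out control naive replicate 1 left Tgtp2 alone, and leaving out Sox2Hi naive replicate 3 left Irgm1 alone. Without control naive replicate 3 Tgtp2 lost its call (-0.84, edgeR adjusted p = 0.071) and Iigp1 gained one (-0.64, edgeR adjusted p = 0.025), and without control naive replicate 2 the calls were 4, Irgm1, Tgtp1, Tgtp2 and Ifi47. The neutrophil markers moved the same way, with 8 of the 18 tested called lower in Sox2Hi treated tumours and 1 with the abundant-gene factors. Of the 10 keratinocyte and tumour epithelial markers, 4 were called higher there under either scaling. Of the 7 fibroblast and endothelial markers tested, 1 was called higher, and 4 with the abundant-gene factors. Among the 13 macrophage and dendritic cell markers tested 0 were called, and 1 higher with those factors. The part of these marker differences in the members' difference was not tested.

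**Figure D3:**
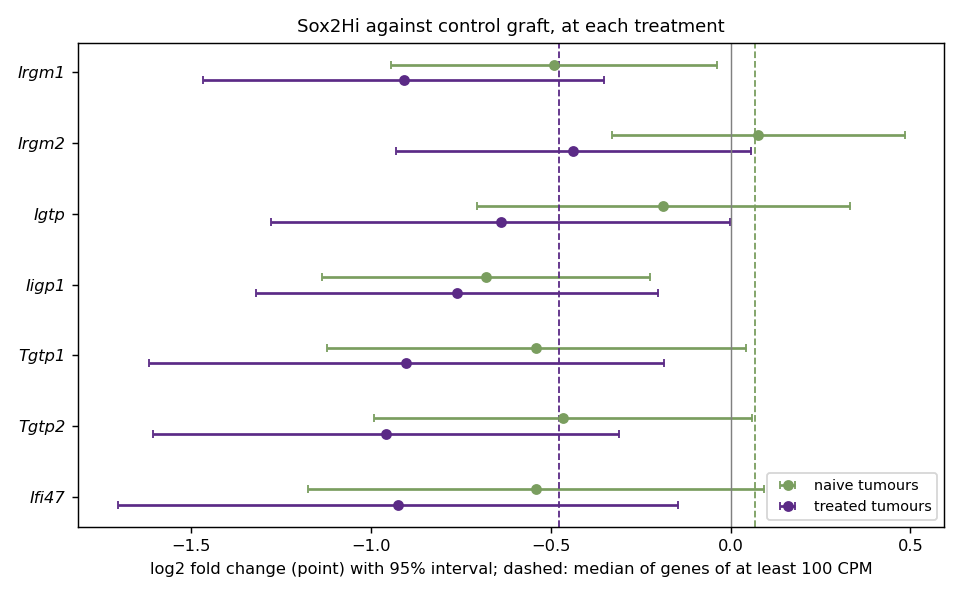
Log2 difference of each member between Sox2Hi and control grafts in naive tumours (green) and in treated tumours (purple), with 95% intervals and, dashed, the median of genes of at least 100 CPM in each comparison. In treated tumours the points lie between -0.96 and -0.44, 6 of 7 below the abundant-gene median of -0.48 and Irgm2 above it, and in naive tumours between -0.68 and 0.077.

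Whether treatment raised the members less in Sox2Hi tumours was tested as the graft by treatment interaction. No member was called, beside 23.7% of all genes tested in either direction and 9.11% lower. The estimates were negative for all 7, from -0.51 (Irgm2, SE 0.29, 95% interval -1.15 to 0.13) to -0.081 (Iigp1, SE 0.33, 95% interval -0.80 to 0.64), with edgeR adjusted p-values from 0.22 to 0.87. None had an unadjusted p under 0.05, and neither DESeq2 nor limma-voom called any. For Tgtp1, the member that rose most, the interval ran from -1.28 to 0.56, so a response in Sox2Hi tumours well below or somewhat above that in control tumours lies within it.

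The sign of the interaction followed the scaling. The members' median was -0.42, beside -0.17 over all genes tested and -0.56 over abundant genes, so the members lay 0.14 above the abundant genes. With 1 library left out the members' median ran from -0.61 to -0.053. Under the all-gene scaling Irgm1, Irgm2, Igtp and Tgtp2 were called lower (4 of 7, beside 16.3% of genes), with a member median of -1.05 and an abundant-gene median of -1.19, again a distance of 0.14. With factors from genes of at least 100 CPM all 7 estimates were above 0, from 0.10 (Irgm2) to 0.53 (Iigp1), and none was called, beside 0.337% of genes called lower.

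**Figure D4:**
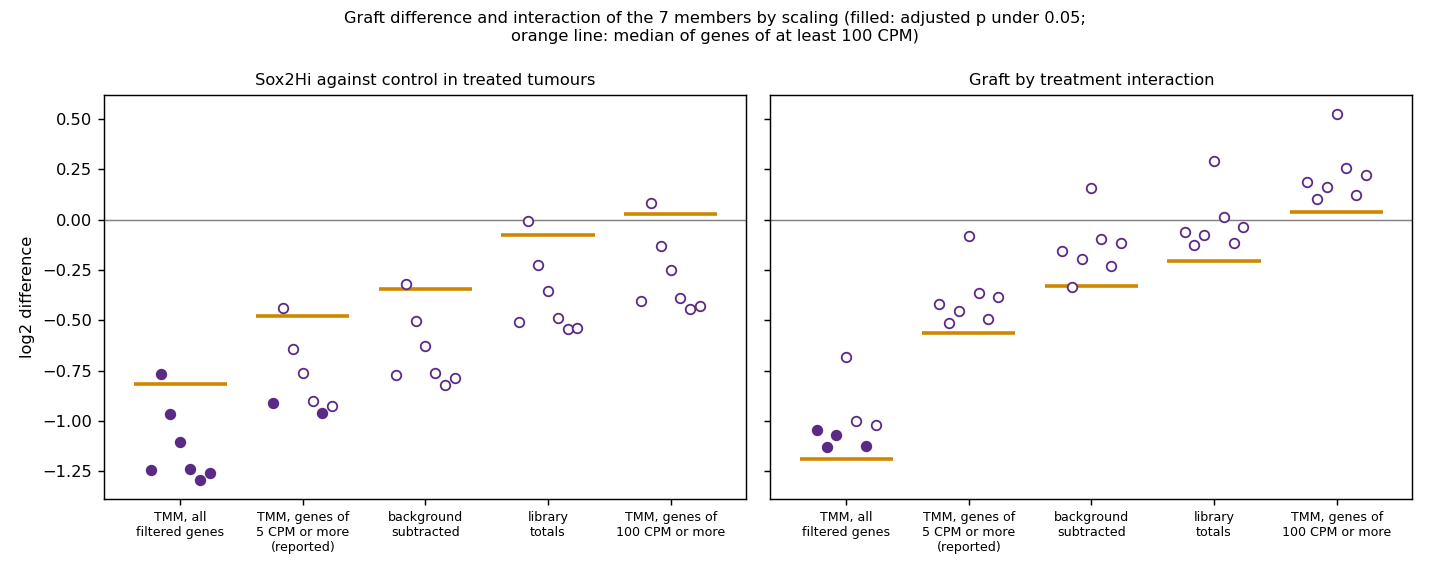
Log2 difference of the 7 members (points, filled where the edgeR adjusted p is under 0.05, in the order Irgm1, Irgm2, Igtp, Iigp1, Tgtp1, Tgtp2, Ifi47 within each column) under 5 scalings, for Sox2Hi against control in treated tumours and for the interaction. The orange line is the median of genes of at least 100 CPM. The points and the line move together: the interaction median of the members runs from -1.05 under the all-gene scaling to 0.19 with factors from abundant genes.

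Every tested gene among the other IRG family genes also rose with treatment. Of 10 listed, 8 were tested, and 8 of 8 were called higher with treatment in each graft, with medians of 1.69 in control and 1.64 in Sox2Hi tumours. The abundant-gene factors, those from genes of at least 100 CPM, gave 7 of 8 in control (median 1.02) and 8 of 8 in Sox2Hi tumours (median 1.57). Gm4951, a neighbour and close relative of Iigp1, averaged 51.6 ± 9.97 CPM (SD, n = 3) in naive and 272 ± 16.7 CPM (SD, n = 2) in treated control tumours, a log2 fold change of 2.40 (SE 0.22), and Gm12250, known as Irgb10, changed by 2.27 (SE 0.32). 9930111J21Rik2 rose by 1.79 (SE 0.20) and Gm12185 by 2.36 (SE 0.46) in control tumours. Gm12185 shares 223 exonic bases with the far more abundant Tgtp1 on the same strand, so the division of reads between them is uncertain. In naive tumours Gm4841 (-0.996, edgeR adjusted p = 0.025) and Gm5431 (-0.76, edgeR adjusted p = 0.040) were called lower in Sox2Hi. Those 2 genes and Gm4951 (-0.86, edgeR adjusted p = 0.031) were also called lower in Sox2Hi treated tumours, and none of the 8 was called for the interaction. Under the all-gene scaling, which tests all 10, 9 were called higher and 1 lower with treatment in control and 8 higher in Sox2Hi tumours, none was called in naive tumours and 5 were in treated ones, and with factors from genes of at least 100 CPM 3 were called in naive and none in treated tumours.

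For the signalling chain known to switch IRGs on, transcripts were counted from ligand to transcription factor, and no protein or activity was measured. Ifng, the gene of the ligand interferon gamma, was below the filter, with 5 to 15 counts in naive libraries, 23 and 221 in control treated and 83 and 63 in Sox2Hi treated libraries. The type I interferon gene Ifnb1 had 0 to 6 counts in any library. Of the 9 genes listed for interferon gamma signalling 7 were tested, and 7 of 7 were called higher with treatment in control tumours (median 1.06) against 3 of 7 in Sox2Hi tumours (median 0.58). These counts were 3 of 7 (median 0.39) and 2 of 7 (median 0.51) with factors from genes of at least 100 CPM. Irf1, a factor that binds ISRE elements, changed by 1.69 (SE 0.26) in control and 1.43 (SE 0.26) in Sox2Hi tumours, and Irf8 by 0.74 (SE 0.23) and 0.77 (SE 0.23). The receptor chain Ifngr1 averaged 138 ± 38.2 CPM (SD, n = 3) in naive and 341 ± 50.9 CPM (SD, n = 2) in treated control tumours, a log2 fold change of 1.31 (SE 0.25), and its Sox2Hi estimate of 0.58 (SE 0.25, edgeR adjusted p = 0.12) was not called. The receptor kinase Jak1 changed by 0.95 (SE 0.18) in control tumours and was at 0.21 (SE 0.18, edgeR adjusted p = 0.41) in Sox2Hi. Jak2, the other receptor kinase, was the 1 gene of the list called between grafts, lower in Sox2Hi treated tumours (-0.74, edgeR adjusted p = 0.035) and for the interaction (-0.85, edgeR adjusted p = 0.048). Both calls were lost with the abundant-gene factors (-0.23, edgeR adjusted p = 0.40, and -0.24, edgeR adjusted p = 0.55), under which the list median between treated grafts was 0.17 and Irf8 was called higher in Sox2Hi (0.72, edgeR adjusted p = 0.043). The all-gene scaling, which tests all 9, called 9 higher with treatment in control and 3 in Sox2Hi tumours, 1 higher between naive grafts, 2 lower between treated grafts and 4 lower for the interaction. Of the type I interferon list, 5 of 6 were tested, and 4 rose in control (Ifnar1, Ifnar2, Stat2, Irf9) and 3 in Sox2Hi tumours (Ifnar2, Stat2, Irf9), and none was called between grafts or for the interaction. None of these 5 was called under the all-gene scaling with treatment in Sox2Hi tumours, 1 was called higher between naive grafts, and 4 were called lower for each of the treated graft difference and the interaction. With factors from genes of at least 100 CPM 2 of the 5 were called higher and 1 lower with treatment in control tumours and 2 higher in Sox2Hi, and the kinase gene Tyk2 was called higher in Sox2Hi treated tumours (0.71, edgeR adjusted p = 0.031) and for the interaction (0.997, edgeR adjusted p = 0.025).

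The guanylate-binding proteins, a second family of interferon-induced GTPases that act on the same vacuoles, all rose with treatment where tested. Of 11 listed 10 were tested, and 10 of 10 were called higher in each graft, with medians of 3.50 in control and 2.64 in Sox2Hi tumours (2.82 and 2.58, with all 10 again called, under the abundant-gene factors). Gbp2 averaged 1411 ± 482 CPM (SD, n = 3) in naive and 8962 ± 829 CPM (SD, n = 2) in treated control tumours, a log2 fold change of 2.67 (SE 0.32), and Gbp7 changed by 2.42 (SE 0.25). Gbp4 changed by 4.90 (SE 0.30) in control and 4.28 (SE 0.29) in Sox2Hi tumours, and Gbp6 by 4.53 (SE 0.24) and 3.46 (SE 0.23). None was called between naive grafts. In treated tumours 6 of 10 were called lower in Sox2Hi, with a list median of -0.95, and Gbp6 was the 1 gene of the list called for the interaction (-1.07, SE 0.32, edgeR adjusted p = 0.033). With factors from genes of at least 100 CPM 4 of 10 were still called lower in Sox2Hi treated tumours and none for the interaction. The all-gene scaling, which tests all 11, called 11 higher with treatment in each graft, 8 lower between treated grafts and 6 lower for the interaction.

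Antigen presentation genes that depend on Irf1 and Nlrc5 rose with treatment too. All 7 were called higher in control tumours (median 1.55) and 6 of 7 in Sox2Hi tumours (median 1.26), where the proteasome subunit Psmb10 stood at 0.64 (SE 0.21, edgeR adjusted p = 0.055). Under the abundant-gene factors 6 of 7 were called in each graft, with medians of 0.87 and 1.19. B2m, the light chain of MHC class I, changed by 1.74 (SE 0.20) in control and 1.15 (SE 0.20) in Sox2Hi tumours. In treated tumours B2m (-0.87, edgeR adjusted p = 0.023), Psmb8 (-0.58, edgeR adjusted p = 0.046) and Psmb9 (-0.71, edgeR adjusted p = 0.029) were called lower in Sox2Hi. None of the 7 was called between naive grafts or for the interaction, where the all-gene scaling called 5 lower. That scaling also called 5 rather than 6 higher with treatment in Sox2Hi tumours and 4 rather than 3 lower between treated grafts. None of the 7 was called between treated grafts with factors from genes of at least 100 CPM (list median 0.0077), and 2 were called lower in Sox2Hi naive tumours.

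Most of the listed autophagy genes, which take in conjugation genes and the initiation genes Becn1 and Ulk1, were called with treatment in control tumours under the reported scaling. Of 12 genes, 9 were called higher with treatment in control tumours (median 0.86) and 1, Gabarap, in Sox2Hi tumours (median 0.29). Gabarap, a small protein conjugated to membranes, averaged 251 ± 22.7 CPM (SD, n = 3) in naive and 788 ± 23.8 CPM (SD, n = 2) in treated control tumours. In Sox2Hi tumours it averaged 276 ± 46.7 CPM (SD, n = 3) when naive and 427 ± 63.9 CPM (SD, n = 2) when treated. Its log2 fold change was 1.65 (SE 0.17) in control and 0.63 (SE 0.17, edgeR adjusted p = 0.031) in Sox2Hi tumours. Map1lc3b, which encodes LC3B, changed by 1.31 (SE 0.18) in control and was at 0.50 (SE 0.18, edgeR adjusted p = 0.074) in Sox2Hi tumours. The conjugating enzyme gene Atg3 changed by 1.39 (SE 0.20) and stood at 0.24 (SE 0.20, edgeR adjusted p = 0.40), and the initiation gene Becn1 changed by 1.02 (SE 0.14) and stood at 0.28 (SE 0.14, edgeR adjusted p = 0.16).

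In treated tumours 5 of the 12 were called lower in Sox2Hi: Atg12 (-0.67), Becn1 (-0.58), Gabarap (-0.88), Gabarapl2 (-0.45) and Map1lc3b (-0.85). All 5 calls were lost with the abundant-gene factors, where the list median was 0.088 and Ulk1 was called higher in Sox2Hi (0.83, edgeR adjusted p = 0.044). For the interaction 6 were called lower, those 5 and Atg3, with a list median of -0.65, beside -0.56 for the abundant genes. The all-gene scaling called 9 of the 12 lower for the interaction and 6 lower between treated grafts, 1 higher between naive grafts, and 10 higher with treatment in control and none in Sox2Hi tumours. With factors from genes of at least 100 CPM none was called lower for the interaction, the list median was -0.058, and Ulk1, which encodes a kinase that starts autophagy, was called higher there too (1.33, edgeR adjusted p = 0.020). With the same factors 5 of the 12 were called higher and 3 lower with treatment in control tumours, and the list medians of 0.19 in control and 0.22 in Sox2Hi tumours were close. Of the 6 genes listed for the ubiquitin arm that marks vacuoles, 4 were tested, and Sqstm1, Tax1bp1 and Traf6 were called higher with treatment in control and none in Sox2Hi tumours. Traf6, a ubiquitin ligase, changed by 0.84 (SE 0.24) in control tumours, and the adaptor Nbr1 was at 0.32 (SE 0.18, edgeR adjusted p = 0.16). The adaptor Sqstm1 was higher in Sox2Hi naive tumours (0.57, edgeR adjusted p = 0.036), Tax1bp1 was lower in Sox2Hi treated ones (-0.88, edgeR adjusted p = 0.030), and both were called lower for the interaction. With factors from genes of at least 100 CPM neither was called for the interaction (Sqstm1 at -0.23, Tax1bp1 at -0.38), Tax1bp1 was not called between treated grafts (-0.38, edgeR adjusted p = 0.21), and 2 of the 4 were called with treatment in control tumours. Of the 6 genes that the all-gene scaling tests, 5 were called higher with treatment in control and none in Sox2Hi tumours, 1 was higher between naive and 1 lower between treated grafts, and 4 were lower and 1 higher for the interaction.

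**Figure D5:**
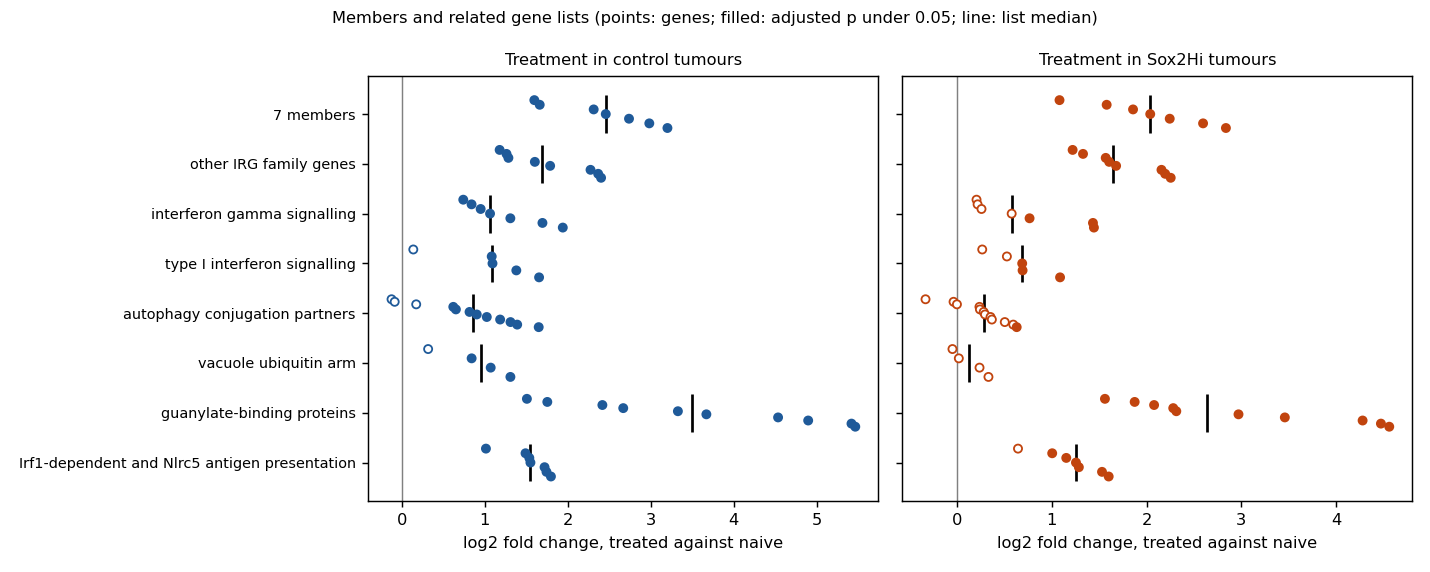
Log2 fold change with treatment of the 7 members and of each tested gene of 7 related lists, in control tumours (left) and Sox2Hi tumours (right). Points are genes, filled where the edgeR adjusted p is under 0.05, and black lines are list medians. The members' medians are 2.46 and 2.04, the guanylate-binding proteins lie further right at 3.50 and 2.64, and the autophagy genes have medians of 0.86 and 0.29.

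The genes whose levels followed the members most closely were ranked over the 10 libraries, by Pearson correlation of log2(CPM + 1) with the mean of the members' standardised values. The ranking left out the members, genes without a symbol and genes with Gm or Rik names, among them IRG relatives such as Gm4951 and Gm12250. Among the 7070 genes of at least 10 CPM that remained, the first 5 were Il18bp (r = 0.996), which encodes a decoy for interleukin 18, Zbp1 (0.995), a sensor of nucleic acids, Fam174a (0.994), Psmb8 (0.994), an immunoproteasome subunit, and H2-Q7 (0.994), a non-classical MHC class I gene. Il18bp averaged 62.2 ± 14.6 CPM (SD, n = 3) in naive and 475 ± 92.3 CPM (SD, n = 2) in treated control tumours. In Sox2Hi tumours it averaged 46.0 ± 9.76 CPM (SD, n = 3) when naive and 219.6 ± 26.3 CPM (SD, n = 2) when treated. Naive and treated libraries lie far apart in all 5 of these genes as in the members. Within the 6 naive libraries r was 0.955 for Il18bp, 0.903 for Zbp1, 0.886 for Fam174a, 0.913 for Psmb8 and 0.984 for H2-Q7. Points share library depth and composition, so these correlations are descriptions only.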

How the data were processed

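RNA from 10 libraries was extracted with a Zymo microprep kit and made into libraries with a NEBNext low-input kit, per the labels' protocols. The authors deposited estimated counts per gene as whole numbers. The submitters' processing notes name kallisto 0.44.0 and mm10, without roles, and strandedness and annotation are not given in the sources used here. The table's 96 sequences that are not mouse genes, 0.00099% to 0.0028% of a library's counts, were left out. Of 55385 mouse identifiers, 55144 matched GENCODE M21 (GRCm38, the build called mm10). Total counts were 13815734 to 22986193.

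The 11274 genes averaging 5 CPM or more were fitted with 4 group means in edgeR 4.0.16 (R 4.3.3, TMM factors from those genes, quasi-likelihood test). The Benjamini-Hochberg adjustment ran over all of them, with a call at adjusted p under 0.05, and the common biological coefficient of variation was 0.213. The test was run on simulated counts with 200 changed genes, up and down in equal number. That does not check the scaling where far more genes move. The 5 comparisons share libraries, and the 2 treated groups have 2 libraries each, so error is pooled over groups. Standard errors, intervals and percentages cover these libraries only. Expected background is the reads per kb of 1738 silent receptor genes times exon length.

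The members and lists were chosen with earlier results of these data known. Named genes are the 7 members, the 4 most abundant tested genes of each list, every gene counted where 5 or fewer are, and the 5 genes most like the members. One list gene that the rule names is not reported here, though counts and medians include it. Replicates of a group differed beyond sampling noise (smallest chi-square per degree of freedom 12.5). Deviations from group means correlated at 0.273 to 0.474 in the 3 same-numbered naive pairs and at -0.28 to 0.247 in the other 10, so only naive libraries were taken as paired. Alternatives were 4 other scalings, 2 other filters, DESeq2 1.42.0, limma-voom (limma 3.58.1), replicate blocks, the compared groups alone, a Ddx3y covariate, background subtraction, the Tgtp genes summed and each library left out. In likeness, 1 CPM was added before taking logs, with 0.5 and 5 as alternatives.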

Additional observations from a re-analysis of the deposited data

Results flagged for a closer look

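For 10 genes of the related lists the change with treatment differed between control and Sox2Hi tumours by the edgeR interaction test, each being lower in Sox2Hi. On the log2 scale the autophagy genes were Atg3 at -1.15 (SE 0.29, edgeR adjusted p = 0.017), Gabarap at -1.02 (SE 0.25, edgeR adjusted p = 0.015), Atg12 at -0.82 (SE 0.20, edgeR adjusted p = 0.016), Map1lc3b at -0.80 (SE 0.26, edgeR adjusted p = 0.048), Becn1 at -0.74 (SE 0.20, edgeR adjusted p = 0.023) and Gabarapl2 at -0.66 (SE 0.18, edgeR adjusted p = 0.027). The adaptors were Tax1bp1 at -0.98 (SE 0.31, edgeR adjusted p = 0.044) and Sqstm1 at -0.83 (SE 0.24, edgeR adjusted p = 0.028). Gbp6 was at -1.07 (SE 0.32, edgeR adjusted p = 0.033) and Jak2 at -0.85 (SE 0.28, edgeR adjusted p = 0.048). Under the all-gene scaling the same 10 were called, from -1.77 (Atg3) to -1.28 (Gabarapl2). The median interaction of genes of at least 100 CPM was -0.56 under the reported scaling and -1.19 under the all-gene scaling. With factors taken from those abundant genes none of the 10 was called, and the estimates ran from -0.54 (Atg3) to -0.054 (Gabarapl2). None of the 7 GTPases was called in this test under the reported scaling.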

How the results depend on the processing

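All 7 members were called higher with treatment in control tumours under every alternative, and in Sox2Hi tumours under all but the one without a filter, which called 6. The graft differences did not hold in this way. In treated tumours, where 2 members were called lower in Sox2Hi, the all-gene scaling and no filter each called 7. Beside these, 9.62% of genes and 2674 of 53207 genes were called lower. Genes of at least 1 CPM called 6, beside 10.5%, and DESeq2 and the replicate block by title number each called 5, beside 16.2% and 14.8%. In the same comparison 0 were called with factors from genes of at least 100 CPM, library totals only, limma-voom, the replicate block by description number, the compared groups alone or background subtracted, and 0 to 4 with 1 library left out. In naive tumours, where none was called, factors from genes of at least 100 CPM, DESeq2 and background subtraction each called 1. Beside these, 1245 of 11274, 1214 of 11274 and 683 of 10037 genes were called lower. The replicate block in the naive libraries called 5, beside 14.3%. For the interaction, also without a call, the all-gene scaling called 4, beside 16.3% of genes called lower. No filter called 6, beside 5100 of 53207 genes, and genes of at least 1 CPM 2, beside 3726 of 21660. The replicate blocks changed no other count of members called. The cause was not tested beyond these settings.

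Signs changed in these cases. With factors from genes of at least 100 CPM the interaction was 0.19 (Irgm1), 0.10 (Irgm2), 0.16 (Igtp), 0.53 (Iigp1), 0.26 (Tgtp1), 0.12 (Tgtp2) and 0.22 (Ifi47), with a median of 0.19, and Irgm2 was at -0.020 in naive and 0.082 in treated grafts. With library totals the interaction was 0.29 for Iigp1 and 0.013 for Tgtp1, and with background subtracted 0.16 for Iigp1. In naive grafts Igtp was at 0.10 under the all-gene scaling, 0.21 without a filter, 0.015 with genes of at least 1 CPM and 0.20 in limma-voom, where Tgtp2 was at 0.026. With 1 library left out, Irgm2 ran from -0.063 to 0.12 in naive grafts, and the interaction from -0.16 to 0.20 for Iigp1, from -0.64 to 0.081 for Tgtp1 and from -0.70 to 0.079 for Ifi47.

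Over all settings the number of genes called ran from 4974 to 10429 for treatment in control tumours, from 209 to 3718 in Sox2Hi tumours, from 3 to 4175 in naive grafts, from 202 to 4195 in treated grafts and from 1191 to 8157 for the interaction. Of the calls, 27.1% were higher in Sox2Hi in naive grafts, 53.9% in treated grafts and 61.5% for the interaction, against 88.5%, 30.1% and 40.8% under the all-gene scaling and 12.8%, 96.8% and 98.7% with factors from genes of at least 100 CPM. With 2 treated libraries per graft, a leave-out leaves 1 library, assumed to vary like the other groups. Irgm2, the lowest member, is the member that depth and background limit most.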
